A study of Mus musculus with 8 samples.

Results

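Solute carriers are the membrane proteins that move sugars, amino acids, nucleosides, ions, metals, vitamins and lipids across the plasma membrane and the membranes of organelles, and their genes carry symbols that begin with Slc. Of the 394 Slc genes listed, 165 were selected on their counts, as those with at least 50 raw counts in each of the 8 libraries, after 13 genes such as the glucose carrier Slc2a1, the cystine carrier Slc7a11 and the iron exporter Slc40a1 had been left out by name. Among the 13 genes left out, 11 also reached 50 counts in every library. No count was made in any library for 65 Slc genes. The 165 genes were described by the substrate their family carries, and 4 of them are named Slc without being carriers.

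Carriers share a work cycle in which the protein opens to one side of the membrane, binds its substrate and opens to the other side, often with a sodium ion or proton moving along. Macrophages depend on them to take up arginine and glucose, to acidify phagosomes, and to empty the lysosome of the amino acids, sugars and nucleosides that digestion sets free. Sphingosine, of which So(d18:1) is the common form, is itself released in the lysosome when sphingolipids are broken down.

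The cells were BMDM, macrophages grown for 5 to 6 days from the bone marrow of wild-type C57BL/6J mice in medium with 10 ng/ml M-CSF. Poly(A) RNA was sequenced from 4 control libraries, given the methanol vehicle, and 4 libraries of cells given 2 μM So(d18:1), both for 6 h. The labels name no inflammatory stimulus, whereas the study's text speaks of an inflammatory stimulation. The study calls its 4 samples of a group biologically independent, and the labels do not say whether they came from separate mice or separate cultures, so p-values measure the spread between these libraries. The question was which carriers differed between So(d18:1) and control cells.

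Library totals lay between 17748397 and 26088609 counts, and the 165 genes held 1.31% to 1.33% of the counts in control and 1.27% to 1.29% in So(d18:1) libraries. Counts were compared by the quasi-likelihood test of edgeR, p-values were adjusted by Benjamini-Hochberg over all 14514 tested genes, and a gene was called at an adjusted p under 0.05. A log2 difference is the fitted log2 fold change of So(d18:1) over control, given with its standard error (SE). A level is given in CPM, counts scaled to a common library size, and levels of different genes are compared in CPM per kb of exon. Sums over genes and differences in CPM are not scaled by length, so genes with long transcripts weigh more in them. The 8 macrophage markers examined were all present, with a summed level of 30650 to 32994 CPM in control and 26524 to 31475 CPM in So(d18:1) libraries. Of these, Cd68 and Mertk fell (log2 difference -0.22 and -0.38) and Itgam rose (0.18). The 9 neutrophil markers summed to 1688 to 2332 CPM in control and 1330 to 1510 CPM in So(d18:1) libraries, without overlap. All 9 had a negative log2 difference, from -0.64 to -0.41 with a median of -0.47. The fall was called for 5 of them (S100a8, S100a9, Elane, Mpo and Cxcr2). Lymphocyte markers summed to 4.22 to 6.91 CPM in control and 2.49 to 3.59 CPM in So(d18:1) libraries, and Nkg7 fell among them. Marker lists of dendritic cells, fibroblasts, mast cells and basophils, and erythroid cells each summed to at most 10.4 CPM in a library, and that of osteoclasts to at most 25 CPM, with Tpsb2 at 0 throughout. The part of other cell types in the carrier differences given here was not tested. In bulk RNA, fewer cells of a type and less RNA per cell cannot be told apart.

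Between So(d18:1) and control cells, 27 of the 165 carrier genes were called (16.4%), of which 7 rose and 20 fell. Among all tested genes 8.94% were called, with 3.87% higher and 5.07% lower. Among the 10750 tested genes that also had at least 50 counts in every library, the share was 10.9%, with 4.94% higher and 5.92% lower. The median log2 difference of the carriers was -0.0045, beside 0.0036 over all tested genes, and 81 carriers had a positive and 84 a negative value. Most differences were small. The absolute log2 difference was under 0.1 in 75 genes and under 0.2 in 126, and Slc2a6 was the one gene at 0.58 or more. The 8 libraries separated by group, with no overlap, in 46 carriers (27.9%), beside 17.5% of genes with at least 50 counts in every library. The separated genes include 26 of the 27 called, all but Slc25a36.

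The largest rises were those of Slc2a6 and Slc46a3, both of which encode carriers of the lysosomal membrane, and Slc7a7, which encodes the light chain of an exchanger of cationic amino acids, fell most among the amino acid carriers. The 250 bases before the start of each, from RefSeq on GRCm38.p6, are shown 5′ to 3′ on the strand of the gene as examples, for the largest rises and for the largest fall of an amino acid carrier. Capitals mark the letters GCGTG, or CACGC on the other strand, in Slc2a6 (a core that hypoxia-inducible factors can bind), TGCACNC on the other strand in Slc46a3 (a form of the metal response element), and TGATGNAAN in Slc7a7 (a form of the amino acid response element).
Slc2a6, chr2:27027999-27028248, minus strand: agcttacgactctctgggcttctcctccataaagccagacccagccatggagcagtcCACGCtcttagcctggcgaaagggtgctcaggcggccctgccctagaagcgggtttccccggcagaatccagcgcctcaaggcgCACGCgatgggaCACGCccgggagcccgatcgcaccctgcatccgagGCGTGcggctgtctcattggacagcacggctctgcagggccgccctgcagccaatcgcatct
Slc46a3, chr5:147894816-147895065, minus strand: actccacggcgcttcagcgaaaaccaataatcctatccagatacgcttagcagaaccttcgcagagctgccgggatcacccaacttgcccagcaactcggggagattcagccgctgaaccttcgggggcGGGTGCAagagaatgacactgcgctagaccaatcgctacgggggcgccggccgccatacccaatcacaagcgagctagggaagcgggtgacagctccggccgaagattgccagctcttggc
Slc7a7, chr14:54417945-54418194, minus strand: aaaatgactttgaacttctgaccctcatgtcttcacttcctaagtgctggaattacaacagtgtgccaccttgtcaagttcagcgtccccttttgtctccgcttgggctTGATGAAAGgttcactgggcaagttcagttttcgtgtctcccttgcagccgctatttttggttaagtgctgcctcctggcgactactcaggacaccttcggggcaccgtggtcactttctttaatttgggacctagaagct
The Slc2a6 promoter held 4 matches to GCGTG, and the other 2 promoters held 1 match each to the letters marked in them. That of Slc20a1, which had the largest fall of all called carriers, held 4 matches to ACGTG and 1 to GCGTG. Its 4 matches to ACGTG lie in 2 matches to CACGTG, which reads the same on both strands and so holds ACGTG on each. Promoters of the same length were matched for 123 of the 165 carriers, of which 60 held GCGTG at least once on either strand (48.8%), beside 28.2% of all 27025 promoters. It was present for 4 of the 6 matched genes that rose and 5 of the 15 that fell. The other core, ACGTG, was in 26% of carrier promoters and 16.6% of all, and CACGTG, whose last letters hold ACGTG, in 14.6% and 6.05%. TGCGCNC was found in 18.7% of carrier promoters and 12.6% of all, TGCACNC in 12.2% and 10.2%, and TGATGNAAN in 2.44% and 3.51%. The shares of all promoters were not limited to genes with at least 50 counts in every library, as the carriers were. No share was taken for promoters of such genes, so an excess cannot be read as particular to carriers. A match describes letters only and is not a measured binding site.

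The sugar carriers held both the largest rise and one of the most abundant carriers that fell. Slc2a6 (ENSMUSG00000036067, chromosome 2 from 27021363 to 27027998, GRCm38) encodes GLUT6, a member of the glucose transporter family found on lysosomes. It stood at 25.7, 25.2, 24.4 and 24 CPM in the control libraries and at 51.1, 46.2, 49.4 and 49.1 CPM in the So(d18:1) libraries. Every So(d18:1) library was far above every control library. The mean rose from 24.8 ± 0.764 to 49 ± 2.03 CPM (SD of 4 libraries), a log2 difference of 0.98 (SE 0.057, adjusted p = 4.72e-10), and it stayed between 0.96 and 1.01 with each library left out in turn. Slc37a2 encodes an exchanger of glucose 6-phosphate and phosphate in the endoplasmic reticulum. Its libraries were at 445, 415, 478 and 446 CPM in control and 341, 328, 351 and 346 CPM with So(d18:1), so the groups stood apart, and it fell with a log2 difference of -0.39 (SE 0.046, adjusted p = 9.15e-06). One of its exons overlaps Gm48081 on the other strand. Slc45a4, of a family of proton-coupled sugar carriers, was at 85.8, 84, 88.5 and 85 CPM in control and 66.9, 65.5, 64.5 and 66.4 CPM in So(d18:1) libraries. These groups were tight and far apart, and the gene fell by 0.38 on the log2 scale (adjusted p = 6.85e-06). The other 7 of the 10 sugar carriers were not called, and the median of the class was 0.14. The summed level of the class was 660 to 723 CPM in control and 585 to 610 CPM in So(d18:1) libraries, a difference of -92 CPM, within which Slc37a2 alone differed by -105 CPM.

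**Figure D1:**
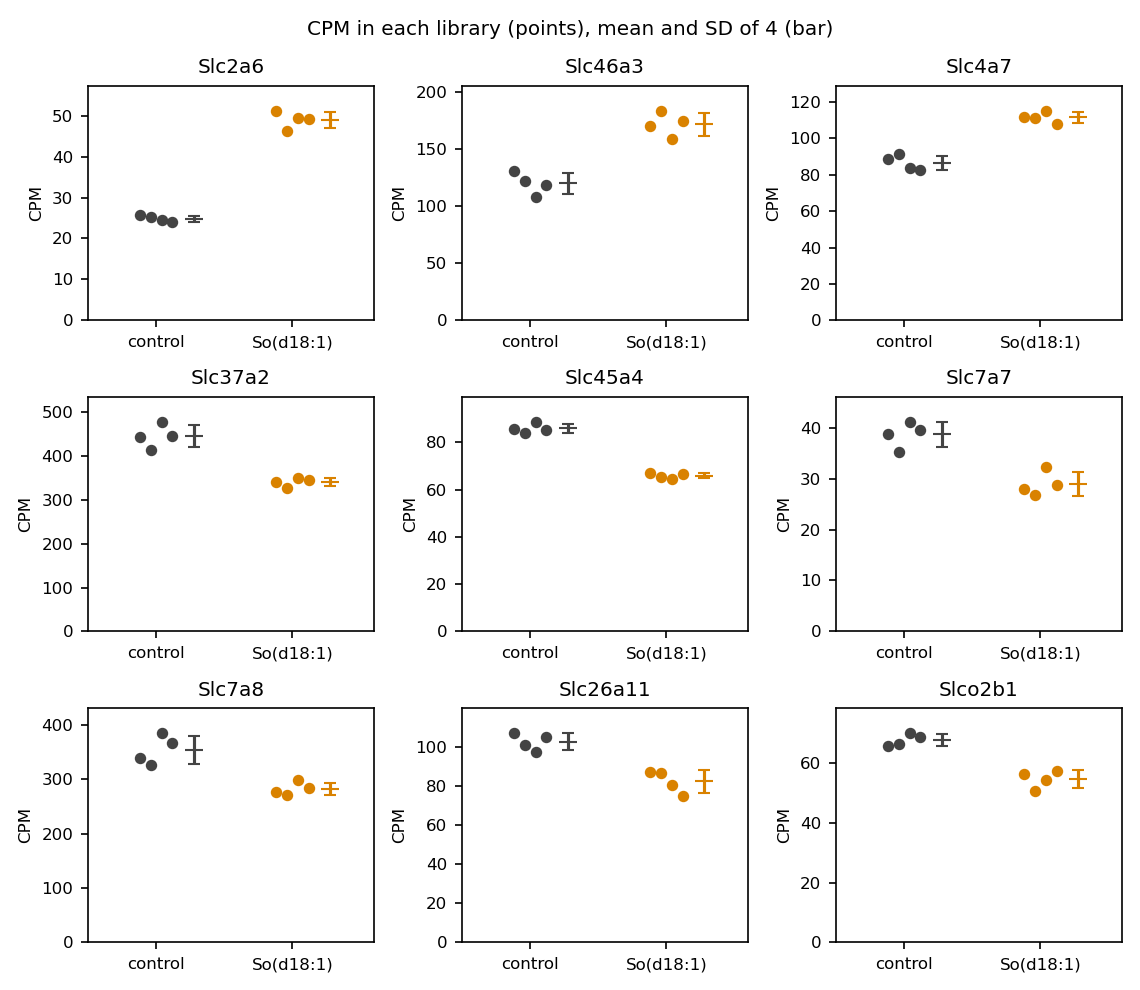
Level in CPM (vertical axes, each from 0) of 9 called carriers in the 4 control (grey) and 4 So(d18:1) (orange) libraries, with the mean and SD of each group beside the points. Slc2a6, Slc46a3 and Slc4a7 are higher in every So(d18:1) library than in every control library, and the other 6 are lower in every So(d18:1) library.

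Amino acid carriers supply the cell with the building blocks of protein and with arginine, glutamine and taurine. Of the 18, 5 fell and none rose at an adjusted p under 0.05, and the median log2 difference was -0.13, with 6 positive and 12 negative values. At an unadjusted p under 0.05 there were 9. Of the 10750 tested genes with at least 50 counts in every library, 2868 passed that limit. The class summed to 4361, 4358, 4536 and 4450 CPM in the control libraries and 4164, 4046, 4265 and 4185 CPM in the So(d18:1) libraries, so that every So(d18:1) library was below every control library. Of the difference in means of -261 CPM, Slc6a6 held -114 CPM and Slc7a8 -71.9 CPM.

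Slc7a7 (ENSMUSG00000000958, chromosome 14 from 54369442 to 54417780) was at 38.8, 35.2, 41.1 and 39.6 CPM in control and at 27.9, 26.8, 32.2 and 28.8 CPM in So(d18:1) libraries. The groups did not overlap, and it fell with a log2 difference of -0.42 (SE 0.067, adjusted p = 3.16e-04). An exon of it overlaps Oxa1l on the other strand, and since no strand setting is stated, reads of these genes cannot be told apart where they overlap. Slc7a8 encodes LAT2, a light chain that exchanges neutral amino acids. It was counted at 340, 326, 385 and 366 CPM in control and 276, 271, 298 and 284 CPM in So(d18:1) libraries, and it fell by 0.33 on the log2 scale (adjusted p = 2.02e-04). The lowest control library was above the highest So(d18:1) library. Slc7a2, a carrier of arginine, was low in both groups, at 8.95, 7.6, 9.15 and 8.79 CPM in control and 6.22, 6.83, 7.03 and 6.75 CPM with So(d18:1). Its log2 difference of -0.36 passed narrowly (adjusted p = 0.0402), and the call was lost with any library but control replicate 2 left out, with an adjusted p of up to 0.108 without control replicate 3. An exon of Slc7a2 also overlaps Gm26584 on the other strand.

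Slc6a6, the taurine carrier, was one of the most abundant carriers in these cells, at 143 ± 0.741 CPM per kb in control and 130 ± 1.33 CPM per kb in So(d18:1) libraries (SD, n = 4 each). In CPM it was at 1209, 1203, 1218 and 1214 in control and at 1094, 1084, 1111 and 1100 with So(d18:1), with a gap between the groups far wider than the spread within them. It fell by 0.14 on the log2 scale (SE 0.039, adjusted p = 0.0238). The call of Slc6a6 was lost without control replicate 1, 3 or 4 or So(d18:1) replicate 1 or 2, with an adjusted p from 0.0506 to 0.0733, while its log2 difference stayed between -0.15 and -0.14. An exon of it overlaps Gm44981 on the other strand. Slc38a7, which exports glutamine from the lysosome, fell with a log2 difference of -0.19 (adjusted p = 0.023). This did not hold without control replicate 1, 3 or 4 or So(d18:1) replicate 2, with an adjusted p of up to 0.0949. Slc7a6, a close relative of Slc7a7, was lower in every So(d18:1) library than in every control library (7.65 to 9.98 against 10.5 to 12.6 CPM), and its log2 difference of -0.32 did not pass (adjusted p = 0.0667). Slc43a2, which encodes LAT4, a facilitative carrier of branched-chain and other large neutral amino acids, had the highest level per kb of the class and of all 165 genes when the 8 libraries were averaged. It stood at 139 ± 1.3 CPM per kb in control and 139 ± 4.38 in So(d18:1) libraries, with a log2 difference of 0.0034 (SE 0.041, adjusted p = 0.974).

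**Figure D2:**
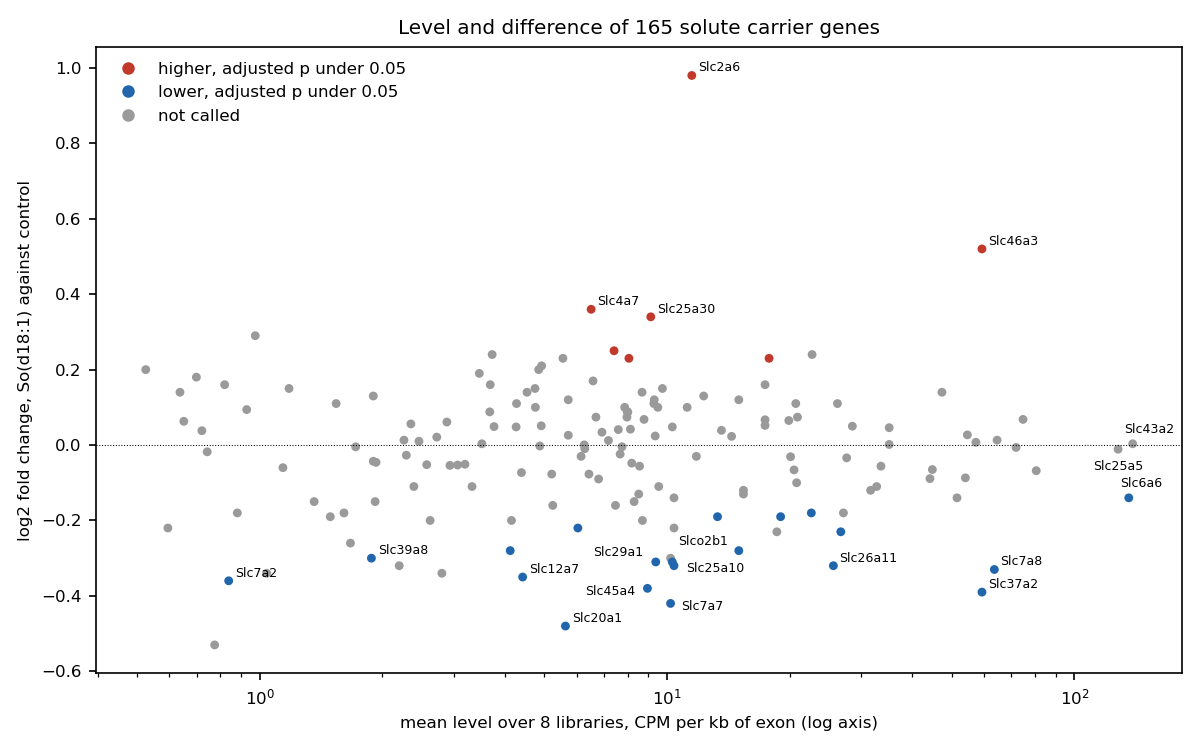
Mean level over the 8 libraries in CPM per kb of exon (horizontal log axis) against the log2 difference of So(d18:1) over control (vertical axis), one point for each of the 165 carriers, with called genes in red (higher) and blue (lower). Called genes span the range from Slc7a2, at under 1 CPM per kb, to Slc6a6, at 130 to 143 CPM per kb, and Slc2a6 stands alone at the top.

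Inorganic ion carriers keep the pH, the chloride and the phosphate of the cell, and here 2 of 21 rose and 3 fell, with a median log2 difference of 0.024. Slc4a7 encodes NBCn1, which brings sodium and bicarbonate into the cell. Control libraries held 88.5, 91.2, 83.6 and 82.8 CPM of it and So(d18:1) libraries 112, 111, 115 and 108 CPM. It rose with a log2 difference of 0.36 (SE 0.046, adjusted p = 1.84e-05), without overlap. Slc26a2, a sulfate carrier of the plasma membrane, rose by less. Its level was 92, 96.2, 88.4 and 89.9 CPM in control and 103, 107, 109 and 112 CPM in So(d18:1) libraries, apart in every library, with a log2 difference of 0.23 (adjusted p = 0.00202).

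The ion carriers that fell were Slc20a1, Slc12a7 and Slc26a11. Slc20a1 encodes PiT1, a sodium-coupled phosphate importer, and had the largest fall of all called carriers, with a log2 difference of -0.48 (SE 0.11, adjusted p = 0.016). It was also variable within the groups, at 34.4, 31.4, 42.5 and 37.9 CPM in control and 27.9, 22.5, 30.7 and 24.1 CPM in So(d18:1) libraries, and the highest So(d18:1) library lay just under the lowest control library. Without control replicate 4 its adjusted p was 0.0504, and without So(d18:1) replicate 4 it was 0.0701. Exons of Slc20a1 overlap 9830144P21Rik and Gm4430 on the other strand. Slc12a7 encodes KCC4, a potassium and chloride exporter. Its level was 59.7, 59.3, 63 and 68.8 CPM in control and 47.4, 45.8, 52.4 and 51.8 CPM with So(d18:1), with no overlap, and it fell by 0.35 on the log2 scale (adjusted p = 6.69e-04). Slc26a11, a sulfate and chloride carrier found on lysosomes, fell with a log2 difference of -0.32 (adjusted p = 3.88e-04), from 103 ± 4.39 to 82.3 ± 5.69 CPM (SD, n = 4 each). Slc8b1, the exchanger that lets calcium out of mitochondria, had the highest level per kb of the class and a log2 difference of -0.0063 (72.1 against 71.8 CPM per kb, adjusted p = 0.95).

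Vitamin, haem and cofactor carriers differed in 1 gene of 8. Slc46a3 (ENSMUSG00000029650, chromosome 5 from 147878437 to 147894815) encodes a lysosomal carrier of the family that holds the proton-coupled folate carrier. It was counted at 131, 122, 108 and 118 CPM in control and at 170, 183, 159 and 174 CPM in So(d18:1) libraries, far apart. The mean rose from 120 ± 9.28 to 172 ± 9.66 CPM (SD of 4 libraries), a log2 difference of 0.52 (SE 0.055, adjusted p = 2.29e-06). Slc48a1, which moves haem out of the phagolysosome, had the highest level per kb of the class, at 82.5 in control and 78.7 CPM per kb in So(d18:1) libraries, and a log2 difference of -0.068 (adjusted p = 0.501). The summed level of the class was 499 to 547 CPM in control and 550 to 574 CPM in So(d18:1) libraries, a difference of 32.6 CPM in means, within which Slc46a3 differed by 51.8 CPM. The groups overlapped for this sum when libraries were scaled by the upper quartile.

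Mitochondrial carriers of the Slc25 family exchange metabolites and nucleotides across the inner membrane. Of 35, 1 rose and 3 fell, and the median log2 difference was 0.021. Slc25a30 was at 37.5, 39.3, 36.3 and 34.2 CPM in control and 44.2, 48.8, 44.5 and 48.5 CPM in So(d18:1) libraries. All So(d18:1) libraries were above all control libraries, and it rose by 0.34 (SE 0.059, adjusted p = 7.48e-04). Slc25a10, which exchanges malate and succinate for phosphate, was at 37.3, 36.4, 43 and 43 CPM in control and 33.7, 29, 32 and 33.1 CPM with So(d18:1). These groups did not overlap either, and it fell by 0.32 on the log2 scale (adjusted p = 0.00437), with an exon overlapping Gm11788 on the other strand.

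Slc25a13, which encodes the aspartate and glutamate carrier citrin, fell by 0.22 on the log2 scale (adjusted p = 0.0432), and this call was lost with each of the 8 libraries left out in turn, with an adjusted p from 0.0518 without So(d18:1) replicate 4 to 0.117 without So(d18:1) replicate 1. Slc25a36, a carrier of pyrimidine nucleotides, fell by 0.18 (adjusted p = 0.035), with overlapping groups of 217 to 244 CPM in control and 186 to 217 CPM in So(d18:1) libraries. Its call was lost without control replicate 1 or 2 or So(d18:1) replicate 2, 3 or 4, with an adjusted p of up to 0.118, and also when libraries were scaled by their size alone. Slc25a25, a calcium-regulated carrier of ATP-Mg and phosphate that was chosen here after its values were seen, had the most negative value of all 165 genes, a log2 difference of -0.53 at 4.7 to 8.58 CPM in control and 4.16 to 5.83 CPM in So(d18:1) libraries. The groups overlapped, and the difference did not pass (SE 0.17, adjusted p = 0.059). It passed without control replicate 2, at a log2 difference of -0.69 (adjusted p = 0.00214), in the Wald test of DESeq2 (adjusted p = 0.0338) and with no filter on low counts (adjusted p = 0.00336). Slc25a5, the abundant ADP and ATP exchanger ANT2, had the highest level per kb of the class, at 128 ± 2.39 in control and 127 ± 5.93 CPM per kb in So(d18:1) libraries (SD, n = 4 each), and a log2 difference of -0.011 (adjusted p = 0.913). Stretches of 50 bases found in Gm5560 and other genes make up 33.8% of its transcript, so its count is uncertain.

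**Figure D3:**
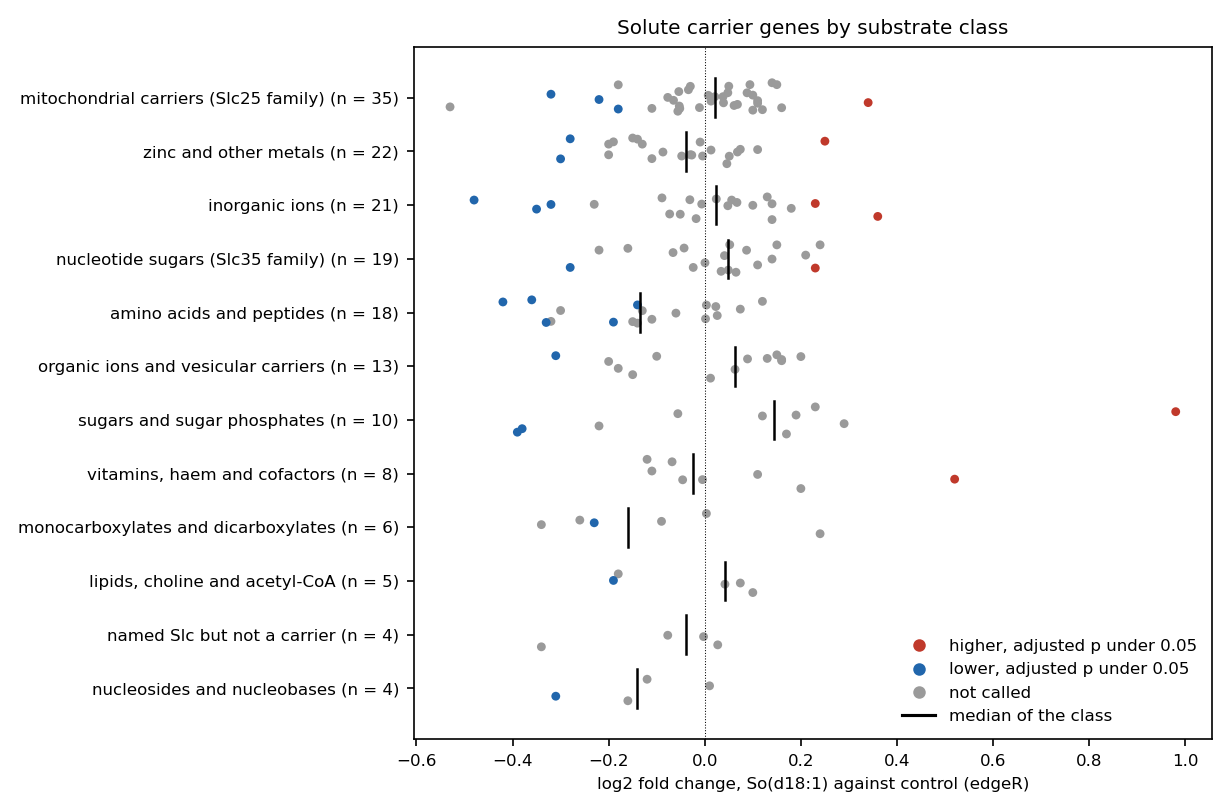
Fitted log2 difference of So(d18:1) over control (horizontal axis) for the 165 genes by substrate class (rows, with the number of genes), with called genes in red (higher) and blue (lower) and the median of each class as a bar. Amino acid carriers hold 5 blue points and no red one, while the Slc25 family sits around 0 with 4 called genes of 35.

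Zinc and other metal carriers included 1 of 22 that rose and 2 that fell, with a median log2 difference of -0.039. Slc39a3, which encodes the zinc importer ZIP3, was at 27.4, 27.4, 25.2 and 28.6 CPM in control and 33.1, 32.1, 30.8 and 33.4 CPM in So(d18:1) libraries. The groups were apart, and it rose by 0.25 (adjusted p = 0.0129). Slc39a10, which encodes ZIP10, fell by 0.28 on the log2 scale (adjusted p = 0.0144), and without So(d18:1) replicate 2 its log2 difference of -0.24 did not pass (adjusted p = 0.0628). Slc39a8 encodes ZIP8, an importer of zinc and manganese. Control libraries lay between 15.2 and 17.1 CPM and So(d18:1) libraries between 10.9 and 14.7 CPM, and it fell by 0.30 on the log2 scale (adjusted p = 0.0465). That call remained only without So(d18:1) replicate 1 among the 8 fits with a library left out, and its adjusted p reached 0.145 without control replicate 4. It was also lost under scaling by library size alone. Slc39a1, which encodes ZIP1, had the highest level per kb of the class, with 64.4 against 64.9 CPM per kb and a log2 difference of 0.013 (adjusted p = 0.903). Slc39a1-ps and other genes hold 21.8% of its 50-base stretches as well. Genes of the response to zinc, the metallothionein Mt1 and the zinc sensor Mtf1, had log2 differences of -0.05 and 0.04 and were not called (adjusted p = 0.716 and 0.715).

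The Slc35 family holds carriers of nucleotide sugars, which supply the Golgi with activated sugars. Genes were placed in this class by family, whether or not such a substrate is known for each. Of 19, Slc35c1, the GDP-fucose carrier of the Golgi, rose and Slc35f6 fell. The first was at 55.2, 50.5, 53.7 and 55.8 CPM in control and 65.4, 61.8, 57.2 and 67 CPM in So(d18:1) libraries, a log2 difference of 0.23 (adjusted p = 0.0137). The groups stood apart by a narrow margin, and without So(d18:1) replicate 4 the call was lost (adjusted p = 0.0551). Slc35f6 fell from 140 to 115 CPM in the mean, by 0.28 on the log2 scale (adjusted p = 7.65e-04), and its exons overlap Mir5625 on the same strand. The median of the class was 0.049. Slc35e1 had the highest level per kb, at 19.9 in control and 21.5 CPM per kb in So(d18:1) libraries (log2 difference 0.11, adjusted p = 0.129).

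Within the families numbered 25, 26, 35 and 39, called members thus moved in opposite directions. In the Slc26 family, the sulfate carrier Slc26a2 rose by 0.23 and Slc26a11 fell by 0.32. Among the zinc importers, Slc39a3 rose while Slc39a8 and Slc39a10 fell. Whether the members of a family differed from each other was not tested.

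**Figure D4:**
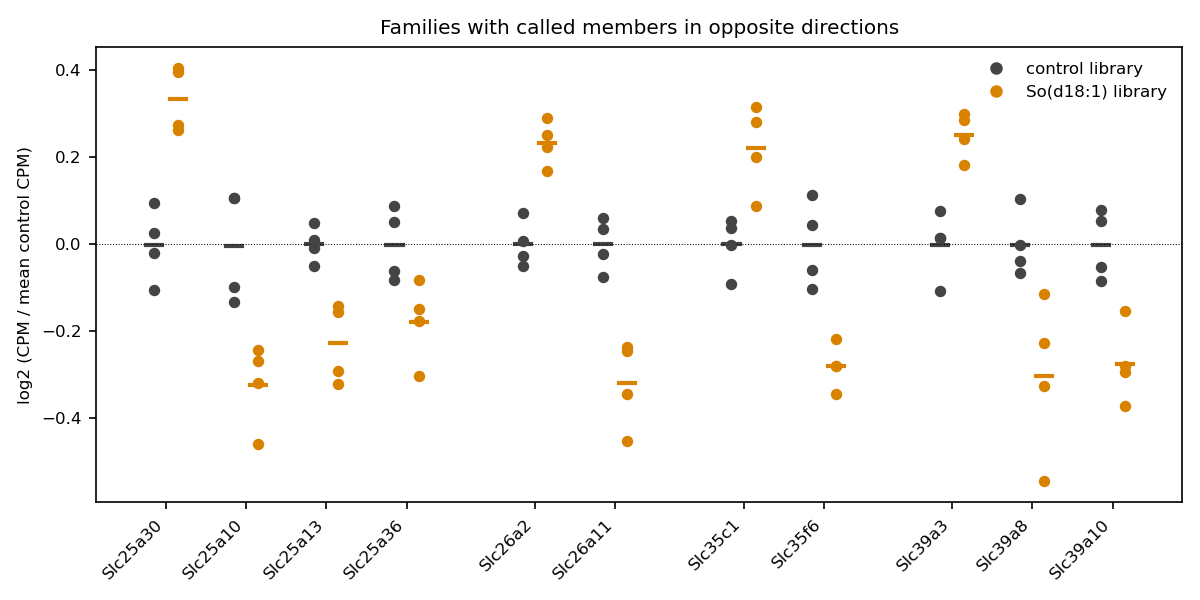
Level of each library relative to the mean of the control libraries (log2 of the ratio, vertical axis) for the 11 called carriers of the Slc25, Slc26, Slc35 and Slc39 families, with control libraries in grey, So(d18:1) libraries in orange and bars at the means. Slc25a30, Slc26a2, Slc35c1 and Slc39a3 lie above their control libraries and the other 7 lie below, with Slc25a36 touching the control range.

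Each of 4 further classes held 1 gene that fell and none that rose. Slc29a1, the equilibrative nucleoside carrier ENT1, fell from 41.6 to 33.6 CPM in the mean, by 0.31 on the log2 scale (SE 0.066, adjusted p = 0.00443), and overlaps Gm17080 on the other strand. The 4 nucleoside carriers summed to 272 to 283 CPM in control and 246 to 256 CPM in So(d18:1) libraries, without overlap. Their most abundant member per kb, the lysosomal carrier Slc29a3, was at 32.9 ± 0.506 and 30.3 ± 0.766 CPM per kb (SD, n = 4 each), and its log2 difference of -0.12 did not pass (adjusted p = 0.0719), although it did with upper quartile scaling (adjusted p = 0.0478) and in the Wald test of DESeq2 (adjusted p = 0.0339). Slco2b1, which encodes OATP2B1, a carrier of organic anions such as steroid sulfates, was lower in every So(d18:1) library (50.7 to 57.3 CPM) than in every control library (65.7 to 69.9 CPM). It was the 1 called gene of 13 carriers of organic ions, at a log2 difference of -0.31 (adjusted p = 4.87e-04), and overlaps Gm15635 and Gm34280 on the other strand. Slc17a5, the sialic acid exporter of the lysosome and the highest of that class per kb, had a log2 difference of -0.10 (21.5 against 20 CPM per kb, adjusted p = 0.167).

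Among 6 carriers of monocarboxylates and dicarboxylates, Slc16a6, a relative of the lactate carriers, fell by 0.23 on the log2 scale (28.8 against 24.6 CPM per kb, adjusted p = 0.00338), and it was also the highest of its class. Stretches of 50 bases found in Amz2 and other genes make up 21.2% of its transcript, so its count is uncertain. Slc13a3, a sodium-coupled carrier of succinate and related acids, was lower in every So(d18:1) library (4.16 to 5.31 CPM) than in every control library (5.33 to 7.38 CPM), and its log2 difference of -0.34 did not pass (adjusted p = 0.128). Slc16a3, which encodes the lactate exporter MCT4 and was chosen after its values were seen, had a positive value. It was at 95.5, 96.5, 132 and 118 CPM in control and 134, 117, 138 and 135 CPM in So(d18:1) libraries, with overlapping groups and a log2 difference of 0.24 (adjusted p = 0.249). Without control replicate 3 it passed, at 0.34 (adjusted p = 0.0228). Of 5 carriers of lipids, choline and acetyl-CoA, the choline carrier Slc44a1 fell by 0.19 (adjusted p = 0.0236), with an exon overlapping 1700060J05Rik on the other strand. The call of Slc44a1 was lost without control replicate 1, 3 or 4 or So(d18:1) replicate 1 or 2, with an adjusted p of up to 0.103. Slc27a1, which brings long-chain fatty acids into the cell and was the highest of the class, had a log2 difference of -0.18 that did not pass (28.8 against 25.4 CPM per kb, adjusted p = 0.0719). It passed without control replicate 2, at -0.24 (adjusted p = 0.00803), with no filter on low counts (adjusted p = 0.00535), with upper quartile scaling (adjusted p = 0.047) and in the Wald test of DESeq2 (adjusted p = 0.0498). None of the 4 genes named Slc without being carriers was called, and the highest of them, the scaffold protein gene Slc9a3r1, had a log2 difference of 0.027 (54.1 against 55 CPM per kb).

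Taken by the compartment and not the substrate, a list of 11 genes that encode carriers of the lysosomal membrane was examined. The list was chosen with earlier results of these data known and may leave out others. Of the 11 genes, 2 rose (Slc2a6 and Slc46a3) and 2 fell (Slc26a11 and Slc38a7). That is 36.4% called, beside 10.9% of tested genes with at least 50 counts in every library. The median log2 difference was -0.10, with 4 positive and 7 negative values. The other 7, which carry haem, nucleosides, sialic acid, amino acids, peptides and sugars, lay between -0.14 for Slc15a3 and 0.17 for Slc2a8 and were not called. Whether the listed lysosomal carriers differed from the other carriers was not tested.

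Summed over the 165 genes, the level was 13066 to 13389 CPM in control and 12617 to 12907 CPM in So(d18:1) libraries, with means of 13222 ± 145 and 12791 ± 140 CPM (SD, n = 4 each). The difference of -431 CPM stayed without overlap under each of 3 other scalings. By class, the summed levels of the groups overlapped for inorganic ions (1701 to 1768 CPM in control, 1705 to 1768 CPM in So(d18:1) libraries) and the Slc25 family (2294 to 2321 and 2274 to 2340 CPM). They also overlapped for the Slc35 family, metals, lipids, monocarboxylates and the genes that are not carriers. Sums given for single classes above are of classes without overlap. Among the 165 genes, Slc6a6, Slc37a2 and Slc7a8 had the widest differences in CPM, at -114, -105 and -71.9 CPM. Levels per kb spanned from 0.525 CPM per kb for Slc22a15 to 139 for Slc43a2, with a median of 7.75. The median coefficient of variation between replicates was 5.91% in control and 5.67% in So(d18:1) libraries.

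Other transporters were examined beside the solute carriers. Of 34 tested genes that encode carriers without the Slc symbol or partners of carriers, 2 rose and 2 fell (11.8% called, beside 8.94% of all tested genes). Their median log2 difference was -0.015. Emb, which encodes embigin, a chaperone that brings monocarboxylate carriers to the cell surface, rose from 379 ± 25 to 566 ± 24.7 CPM (SD of 4 libraries), a log2 difference of 0.58 (adjusted p = 1.11e-07). Sfxn3, a mitochondrial serine carrier, rose by 0.29 (adjusted p = 4.42e-04). Npc1, which exports cholesterol from the lysosome, fell by 0.31 on the log2 scale (302 against 244 CPM, adjusted p = 2.30e-04), and Tmem165 of the Golgi fell by 0.24 (adjusted p = 0.0149). Among the 25 ABC transporters examined, which spend ATP to move their substrates, Abca7, Abcc4 and Abcd2 rose by 0.22 to 0.25 and Abca9 fell by 0.28 on the log2 scale. Of the 13 Slc genes left out by name, 5 were called (38.5%, beside 8.94% of all tested genes), 2 higher and 3 lower.

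The choice of a minimum count in every library bears on which genes are described. The lowest count was 56 for Slc39a7, 60 for Slc22a17 and 70 for Slc9a5 just inside the limit, and 49 for Slc25a43 and 46 for both Slc26a1 and Slc27a3 just outside it. Of the Slc genes outside, 5 had 50 or more counts in every control library but not in every So(d18:1) library, and 1 showed the reverse. The limit is on raw counts, and the smallest library total (17748397) was that of So(d18:1) replicate 1. For Slc25a43, Slc26a1, Slc27a3 and Slc16a4 the counts under 50 were in So(d18:1) replicates 2, 3 or 4. Those of Slc18b1 were in replicates 1 and 3. The part of library size in this was not tested. Exons of 45 of the 165 genes overlap a gene on the other strand, 10 of the called genes among them, and 18 share over 10% of their transcript with another gene, of which Slc16a6 alone was called.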

How the data were processed

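RNA of 8 BMDM libraries, 4 for each group, was sequenced from poly(A) RNA. The authors deposited raw counts per Ensembl gene, made with Trim Galore 0.6.7 for trimming, HISAT2 2.2.1 for alignment to mm10 and featureCounts 2.0.1 for counting, as the methods and processing notes name them. The strand setting and the handling of reads with several matches are not given in the sources used here. Each column was matched to its library by name. Symbols came from GENCODE M21 (GRCm38) for 52081 of 55357 identifiers, and the rest took 0.169% to 0.325% of the counts.

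Counts were filtered with filterByExpr, scaled by TMM and tested with edgeR 4.0.16 (robust quasi-likelihood) in R 4.3.3, with Benjamini-Hochberg adjustment over 14514 genes and calls at an adjusted p under 0.05. Standard errors were taken as the absolute log2 difference over the square root of F. CPM use TMM-scaled library sizes. Shared sequence is the percent of 50-base stretches in the transcripts of a gene that occur in another. Alternatives were the scalings and filters named in the closing section, limma 3.58.1 (voom), the Wald test of DESeq2 1.42.0, the replicate number as a block, and each library left out in turn. The fit was tested on simulated counts first. Each of the 165 genes had at least 56 counts in every library, and the 4 libraries per group set the precision.

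The genes, classes, lists and tests were chosen with earlier results of these data known. Named are all called carriers, the highest carrier of each class per kb, those nearest the count limit, called carriers of one family with opposite directions, and uncalled carriers with groups apart and an absolute log2 difference of at least 0.3. All 7 called rises and the 8 largest called falls are given in every library. Promoters to print were chosen after the values were seen. No protein sequence was used here, and the result of 1 ABC transporter is not reported here. Plots used matplotlib 3.10.9 (Python 3.11.15).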

Additional observations from a re-analysis of the deposited data

Results flagged for a closer look

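Single libraries were compared with the other 3 of their group for the 39 carriers that the rule names, in 78 groups, by the ratio of Dixon, which divides the distance to the closest library by the range of all 4. A library stood apart in 2 groups, fewer than the 3.9 that chance gives. In control libraries the ratio was 0.928 for Slc43a2, with control replicate 3 at a log2 CPM of 10.46 against 10.43 to 10.44 in the others. It was 0.848 for Slc7a6, with control replicate 3 at 3.67 against 3.41 to 3.45. The ratio looks at 1 library at a time and cannot show a group that splits into pairs. Between libraries of a group, a chi-square per gene would be near 1 for counting noise alone. It was 2.75 between control replicates 1 and 2, 3.76 between 3 and 4, and 5.68 to 12.1 for other control pairs. Pairs of So(d18:1) libraries gave 2.77 to 7.48.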

How the results depend on the processing

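The sign of the log2 difference was kept for all 27 called carriers in 16 alternative fits, and 17 of the 27 were called in every one. With each library left out in turn, 19 to 28 carriers were called, and 45 calls of 10 carriers were lost. The number called lower ranged from 12 (without So(d18:1) replicate 2) to 19, with 13 without control replicate 1 or 4, and the number over all tested genes from 815 to 1370. The median log2 difference of the carriers ranged from -0.0125 to 0.0038 with a library left out and was -0.0169 with upper quartile scaling, so it has no firm sign. At the thresholds of the study's methods, p under 0.05 before adjustment together with a change of 1.5-fold or more, 564 genes passed, among them 1 carrier (Slc2a6), 1 higher and 0 lower. By edgeR 58 of the 165 carriers had an unadjusted p under 0.05, beside 2868 of the 10750 tested genes with at least 50 counts in every library. The Wald test of DESeq2 called 31 carriers. No filter on low counts ended the calls of Slc7a2 and Slc25a13, and library size alone those of Slc25a36 and Slc39a8. Over all tested genes, deviations of same-numbered libraries correlated at -0.00351, 0.1, 0.0331 and 0.00909. Of the 4 libraries, 1 correlated best with its own number. These correlations are low and were not tested, so they cannot exclude a pairing, over all genes or in a part of them. With the replicate block, 33 carriers were called, 8 higher and 25 lower, all 27 among them. Among all tested genes, 1784 were called with the block and 1298 without it. The block also called Slc25a25 (adjusted p = 0.0121), Slc27a1 (0.0419) and Slc16a3 (0.00315).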
